A study of Mus musculus with 2 samples.

Results

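Gene loci of myeloid cells and their granules were followed in mouse spleen RNA: Slpi, Spi1, Gm11505, A530013C23Rik and Gm37468. These 5 loci are among the 15565 gene names in the deposited tables, and hold 10 of the 32012 transcripts listed there. The 10 transcripts were all annotated long non-coding RNA (lncRNA) transcripts named Gm11505, A530013C23Rik or Gm37468, and all assembled transcripts, which match no annotated one, named Slpi, Spi1, Gm37468 or Gm11505. No assembled transcript carried the name Gm11505, so 4 members were annotated and 6 were assembled. The loci were chosen with their values in these libraries known, so the differences below are descriptions and carry no test.

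The CIA group was 1 spleen library of mice with collagen-induced arthritis, a model in which joints become inflamed after injection of type II collagen, and the healthy group was 1 spleen library of untreated mice. Both titles give day 40, but the CIA treatment is labelled as ending with sacrifice at day 42 from first immunization. The labels give no strain, age, sex or number of mice for either library. With 1 library per group there is no replicate error, and each comparison is between 2 libraries, called CIA spleen and healthy spleen below. The values were FPKM (fragments per kilobase of transcript and 1000000 fragments), which keep no counts, so the depth is unknown.

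Neutrophils and monocytes carry proteases and antimicrobial proteins in granules. Mpo encodes myeloperoxidase, the main enzyme of primary granules, and Slpi encodes a secreted inhibitor of neutrophil elastase and related serine proteases. Spi1 encodes PU.1 and Cebpb encodes C/EBP beta, transcription factors of myeloid development and activation. The SIRP beta genes encode receptors of myeloid cells that signal through the adaptor encoded by Tyrobp. The mRNAs of these genes were not analysed here, so the label myeloid rests on position and name alone. Of the members, Gm11505 lay opposite Mpo on chromosome 11, but A530013C23Rik did not lie near Mpo. It lay on chromosome 2, on the same strand as Cebpb and 0.759 kb beyond its end.

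Of the sequences printed next, those of Gm11505 and Gm37468 show what the reads of these loci can be shared with. The first 150 bases of the Gm11505 transcript are shown because most of this RNA is the complement of Mpo exons. Capitals mark the 117 bases opposite an Mpo exon (GENCODE M21, GRCm38, minus strand, the spliced transcript between chr11:87796371-87801144).

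Gm11505: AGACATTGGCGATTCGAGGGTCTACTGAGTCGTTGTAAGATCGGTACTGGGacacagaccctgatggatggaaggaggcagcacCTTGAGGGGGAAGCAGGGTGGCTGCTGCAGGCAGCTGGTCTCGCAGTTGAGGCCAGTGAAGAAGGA

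The next pair shows how close Gm37468 is to the SIRP gene Sirpb1c. It is the gap-free stretch of 100 bases with the most mismatches in the alignment of Gm37468 (chr3:15548466-15548565, plus strand) to a retained-intron transcript of Sirpb1c (chr3:15838485-15838584, printed on the plus strand, the opposite of Sirpb1c). Capitals mark the 4 mismatches. Both stretches are from GENCODE M21 on GRCm38.

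Gm37468: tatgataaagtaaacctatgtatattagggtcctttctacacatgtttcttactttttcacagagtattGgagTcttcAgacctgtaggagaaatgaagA
Sirpb1c: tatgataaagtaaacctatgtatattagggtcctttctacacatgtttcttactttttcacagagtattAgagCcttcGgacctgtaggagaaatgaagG

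The last is the 250 bases before the RefSeq start of Slpi (chr2:164356508-164356757, GRCm38.p6, minus strand), shown because an assembled Slpi transcript spans it and because the summed FPKM of its locus differed most of the 5 between the libraries. Capitals mark the single match to the C/EBP motif TTGCNNAA, searched on both strands, which begins 241 bases before the start. This motif occurs in 9.56% of 32851 RefSeq windows of the same length. The PU.1 motif GAGGAA, searched on both strands, occurs in 23.3% of those windows, and its letters are not in this one. A match describes the letters only.

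Slpi: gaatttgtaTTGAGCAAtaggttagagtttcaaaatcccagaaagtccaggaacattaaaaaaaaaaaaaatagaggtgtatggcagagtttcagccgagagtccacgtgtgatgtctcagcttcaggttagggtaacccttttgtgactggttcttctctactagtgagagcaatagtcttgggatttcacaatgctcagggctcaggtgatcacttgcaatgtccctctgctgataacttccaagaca

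All 3 transcripts of the Slpi locus were lower in CIA spleen. MSTRG.22996.1, which shares splice junctions with Slpi, stood at 0.0935 FPKM in CIA spleen and at 16.5 FPKM in healthy spleen. MSTRG.22997.1, inside an intron, stood at 0.245 against 2.06 FPKM, and MSTRG.22998.1, further upstream in the same intron, at 0.141 against 1.93 FPKM. No Slpi transcript reached 0.25 FPKM in CIA spleen, and each was above 1.9 FPKM in healthy spleen. Summed, the locus stood at 0.479 FPKM in CIA spleen and 20.5 FPKM in healthy spleen, a log2 ratio of -5.15. Log2 ratios here are of CIA over healthy FPKM with 0.1 FPKM added to both, which draws ratios of low transcripts toward 0. In this bulk RNA, fewer cells of a type and less RNA per cell cannot be told apart.

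MSTRG.22996.1 was the member of widest ratio without a listed 0. Its healthy FPKM was 176.5 times its CIA FPKM, or 85.8 times with the pseudocount, a log2 ratio of -6.42. It was the 18th lowest ratio among 16773 assembled transcripts that reached 0.5 FPKM in either library, and the 121st by healthy level. It had 5 exons and 1275 bases at chr2:164354070-164359680 on the minus strand. The 4-exon coding transcript of Slpi begins 3173 bases downstream of the start of MSTRG.22996.1, and the coding Slpi transcripts themselves were not analysed here. A transcript that shares splice junctions with the mRNA can take up reads of the mRNA, and how the reads were divided was not tested.

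The single-exon pair lay in the 32325-base first intron of the Slpi transcript of widest span, 6810 and about 14590 bases from the nearest Slpi exon, and had no strand. Their log2 ratios were -2.65 for MSTRG.22997.1 and -3.07 for MSTRG.22998.1. Assembled transcripts have a lower limit that bears on such ratios, since percentile 5 of their FPKM in the library where each was higher was 1.73. These intronic transcripts stood at percentiles 29.1 and 19.2 of that level. In the map of the locus they lie upstream of the start of the 4-exon transcript, and MSTRG.22996.1 reaches toward them. The nearest annotated lncRNA gene, Gm14302, 70.8 kb away, was listed at 0 in CIA spleen and at 0.467 FPKM in healthy spleen.

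**Figure D1:**
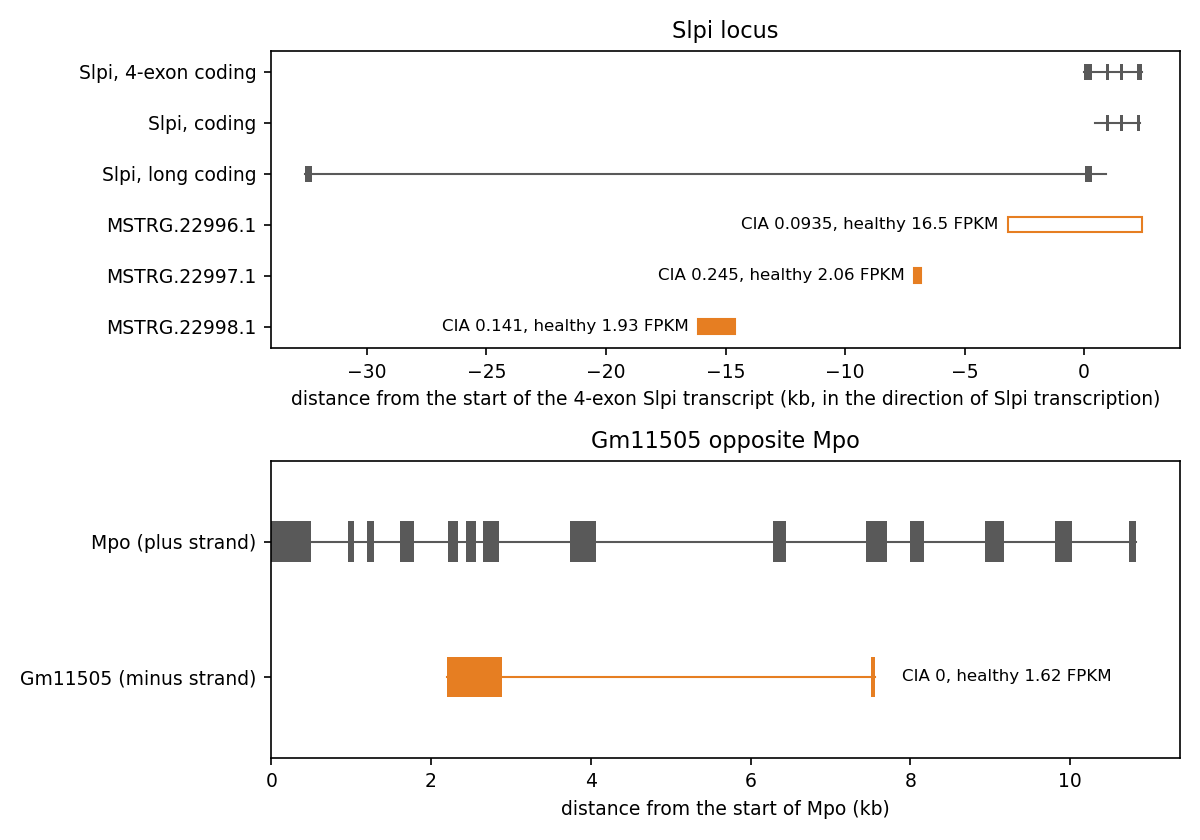
Maps of the Slpi locus (top) and of Gm11505 opposite Mpo (bottom), with distance in kb on the x axis, annotated coding transcripts in grey (filled boxes are exons) and member transcripts in orange with their FPKM in each library. The open box of MSTRG.22996.1 marks its span, since its exon positions were not used here. All 3 Slpi transcripts were lower in CIA spleen, and the exons of Gm11505 lie mostly opposite Mpo exons.

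Gm11505 was listed at 0 in CIA spleen and at 1.62 FPKM in healthy spleen. Its single annotated transcript, ENSMUST00000130442, has 2 exons and 737 bases at chr11:87795784-87801144 on the minus strand. It lies within Mpo, which is on the plus strand, and 512 of its 737 bases (69.5%) are opposite Mpo exons, as the first sequence above shows. Exon 1 is opposite an Mpo exon over all of its 51 bases and exon 2 over 461 of its 686 bases. The strandedness of the libraries is not given in the sources used here. Over the 512 bases opposite Mpo exons, reads of Mpo and of Gm11505 therefore cannot be told apart. The FPKM of Gm11505 does not separate these bases from the rest. The nearest annotated lncRNA gene, Mir142hg, which contains the blood-cell microRNA miR-142, lay 38.5 kb away and was likewise listed at 0 in CIA spleen, with 14.3 FPKM in healthy spleen. No fold is given against a listed 0, which can also be a failed estimate.

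A530013C23Rik, the neighbour of Cebpb, differed little between the libraries in its annotated form. ENSMUST00000130679 stood at 0.372 FPKM in CIA spleen and 0.528 FPKM in healthy spleen, a log2 ratio of -0.41. The longer ENSMUST00000141923 stood at 0.0422 against 0.0226 FPKM and was the only member below 0.5 FPKM in both libraries. The sum was 0.415 against 0.551 FPKM. An assembled transcript inside an intron of A530013C23Rik, MSTRG.23102.1, is not a member, and stood at 3.81 against 1.14 FPKM. With it the sum of the locus became 4.23 against 1.69 FPKM, and its log2 ratio turned from -0.34 to 1.27. MSTRG.23102.1 is a single exon of 314 bases with no strand. The nearest other annotated lncRNA gene, Gm14320, 23.5 kb away, stood at 0.697 against 0.440 FPKM.

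Spi1 was represented by MSTRG.21662.1, a single exon of 2379 bases at chr2:91107258-91109636. It lies on the minus strand, opposite to Spi1, in a 13728-base intron and 3619 bases from the nearest Spi1 exon. It stood at 3.43 FPKM in CIA spleen and 2.81 FPKM in healthy spleen. Its log2 ratio of 0.28 lay close to the median of all assembled transcripts, 0.26, and became -0.02 when the median of the annotated transcripts, 0.30, was subtracted. The nearest annotated lncRNA gene, Gm13778, lay 28.5 kb away with 0.242 against 0.0386 FPKM.

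The 3 transcripts of Gm37468 did not share a direction of the same size. The annotated ENSMUST00000194767 was listed at 0 in healthy spleen and stood at 1.78 FPKM in CIA spleen. The assembled MSTRG.23477.1 stood at 3.05 FPKM in CIA spleen against 2.75 FPKM in healthy spleen, and MSTRG.23475.1 at 2.38 against 2.16 FPKM. Both assembled transcripts were thus slightly higher in CIA spleen, with log2 ratios of 0.14 each. The sum was 7.21 FPKM in CIA spleen against 4.91 FPKM in healthy spleen, a log2 ratio of 0.55, within 2-fold. It was 0.79 when only the transcripts under the authors' gene ID of the annotated one were summed. Of the 3, the annotated transcript alone was at least 2-fold apart.

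Gm37468 is antisense to Sirpb1b, whose exons it meets over 9 of its 854 bases. It aligned to Sirpb1c at 97.0% identity over all of its 854 bases, and reads may be shared between them. MSTRG.23477.1 had 2 exons of 932 bases in all, yet spanned 291218 bases from Sirpb1b to Sirpb1c. MSTRG.23475.1 had 2 exons of 1463 bases in all and spanned 150017 bases from Sirpb1a to Sirpb1b. The other 11 transcripts that touch the region of Sirpb1a, Sirpb1b and Sirpb1c, all assembled, ranged from 1.55 to 5.20 FPKM in CIA spleen and from 1.55 to 7.66 FPKM in healthy spleen. Their log2 ratios ran from -0.59 to 0.51 with a median of -0.04, and 0 of the 11 were 2-fold apart. MSTRG.23470.1 and MSTRG.23471.1, on opposite strands in Sirpb1a, had the same values, 5.20 against 7.66 FPKM. The nearest annotated lncRNA gene, Gm33819, was listed at 0 in both libraries.

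**Figure D2:**
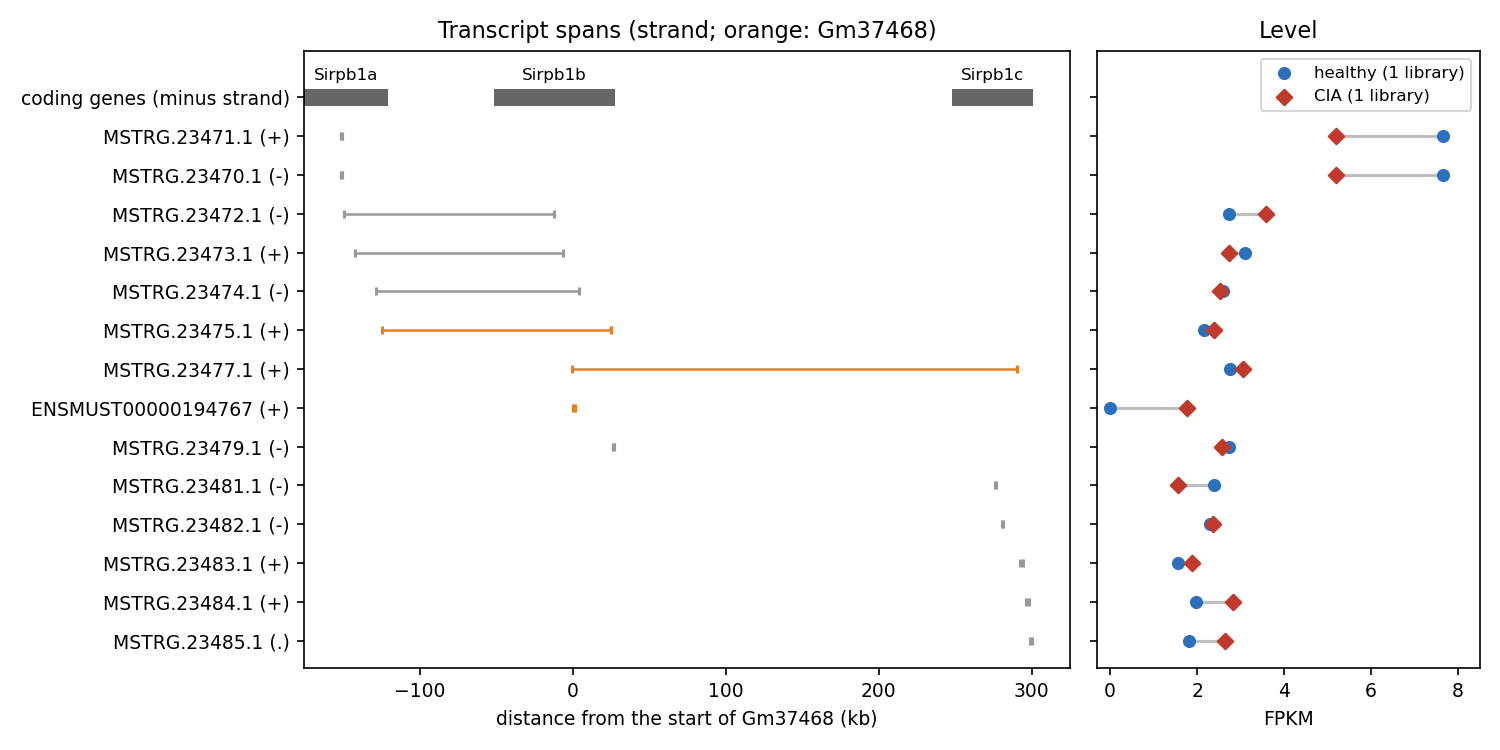
Transcripts of the Sirpb1a, Sirpb1b and Sirpb1c region, with their spans in kb from the start of Gm37468 (left, strand in brackets, Gm37468 in orange) and their FPKM in CIA spleen (diamonds) and healthy spleen (circles) (right). The annotated Gm37468 transcript stands at 0 in healthy spleen and 1.78 FPKM in CIA spleen, and the other 13 transcripts lie within 2-fold.

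Across the 5 loci, 9 of the 10 transcripts reached 0.5 FPKM in one or both libraries. Of these 9, 1 was at least 2-fold higher in CIA spleen (annotated Gm37468), 4 were at least 2-fold lower (the 3 of Slpi and Gm11505) and 4 lay within 2-fold. Among all 3068 annotated transcripts past the same minimum, 15.7% were 2-fold higher and 6.13% were 2-fold lower, and among the 16773 assembled ones 17.2% were higher and 11.1% were lower. The members were chosen from this contrast, so nothing is read from their share. Without regard to size, 5 of the 10 were lower and 5 higher in CIA spleen. The 10 summed to 11.5 FPKM in CIA spleen and 30.4 FPKM in healthy spleen, a log2 ratio of -1.39. Slpi held 67.5% of the healthy sum and 4.16% of the CIA sum. Without Slpi the sum was 11.05 against 9.89 FPKM, a log2 ratio of 0.16 in the other direction.

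**Figure D3:**
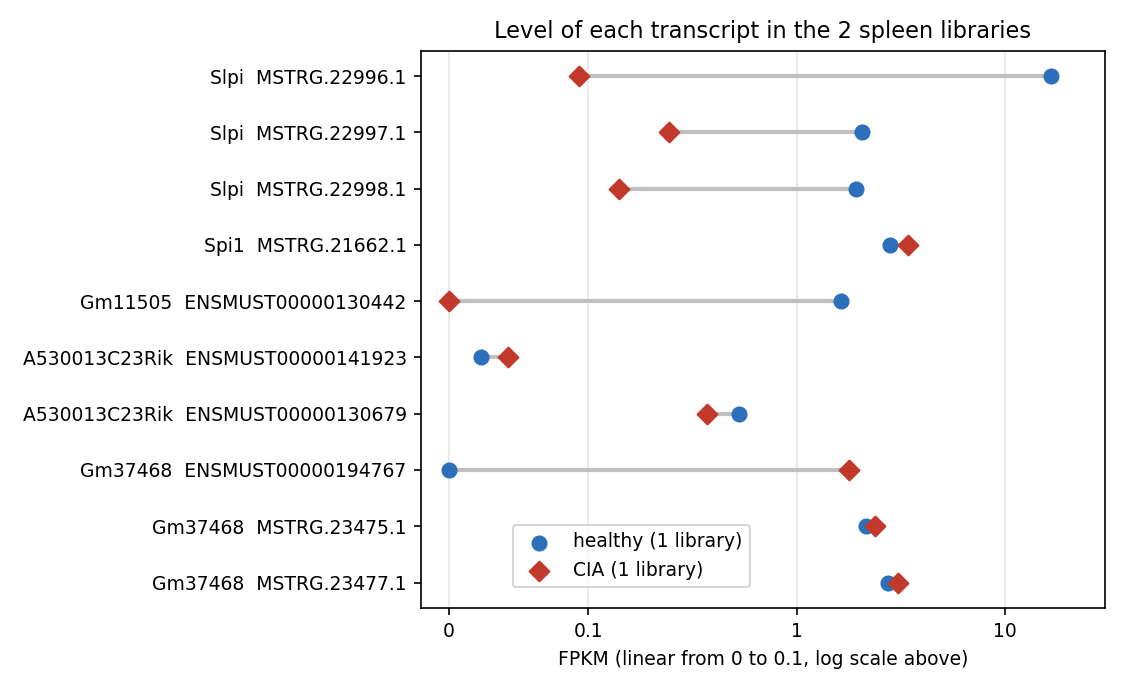
FPKM of the 10 transcripts in CIA spleen (diamonds) and healthy spleen (circles), on an axis that is linear from 0 to 0.1 and logarithmic above. Slpi and Gm11505 lie to the left in CIA spleen, the annotated Gm37468 transcript lies at 0 in healthy spleen, and the pairs of Spi1 and of assembled Gm37468 lie close together.

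**Figure D4:**
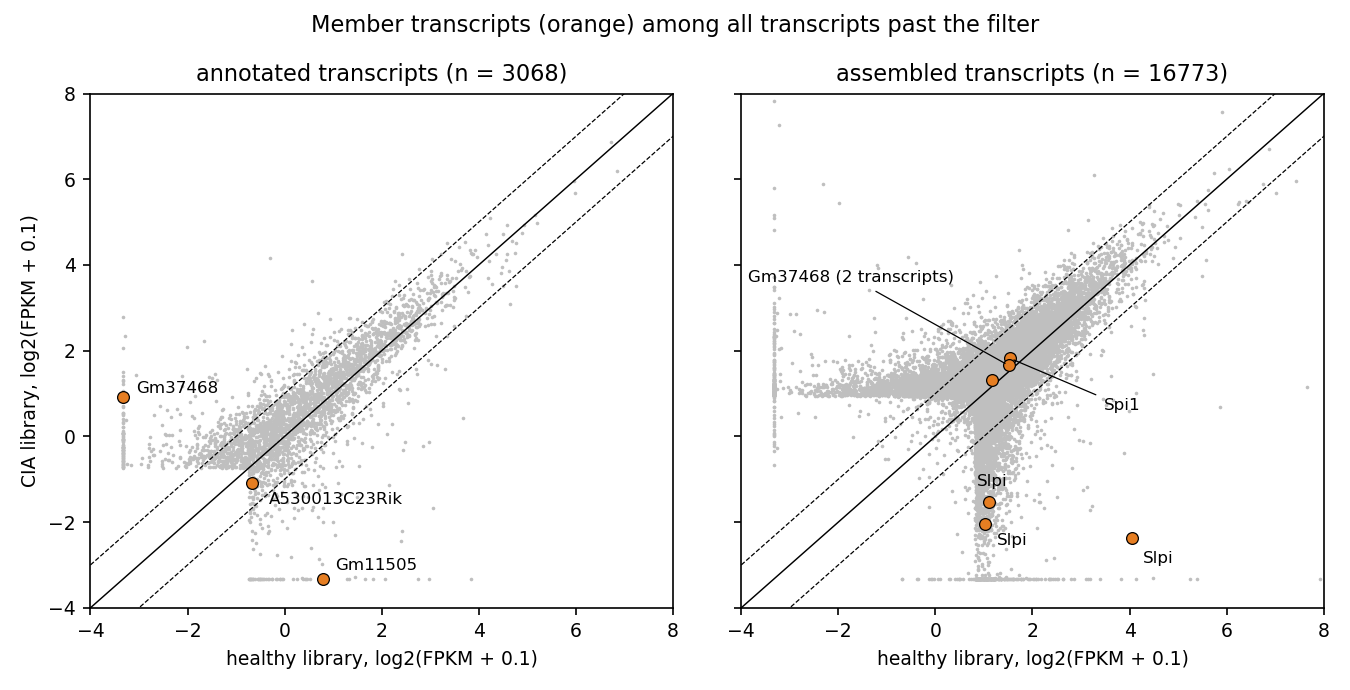
Log2(FPKM + 0.1) of each transcript that reached 0.5 FPKM in either library, healthy on the x axis and CIA on the y axis, for annotated (left) and assembled (right) transcripts, with members in orange, equality as a solid line and 2-fold as dashed lines. The intronic Slpi transcripts lie in a band of assembled transcripts near the lower limit of healthy spleen, and MSTRG.22996.1 lies apart from it at 16.5 FPKM. Beyond the axes lie 1 annotated and 26 assembled transcripts.

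In order of summed level, healthy spleen ran Slpi (20.5 FPKM), Gm37468 (4.91), Spi1 (2.81), Gm11505 (1.62) and A530013C23Rik (0.551). CIA spleen ran Gm37468 (7.21 FPKM), Spi1 (3.43), Slpi (0.479), A530013C23Rik (0.415) and Gm11505 (0). With 1 library each, no spread says which neighbours in these orders differ. The gene names closest to each locus by distance of log2(FPKM + 0.1) over the 2 libraries, with all transcripts of a name summed, were as follows. For Slpi they were Gm4873 (0.664 FPKM in CIA spleen against 20.02 in healthy spleen, distance 0.40), Gm37474 and Cdc42se2. Only Gm4873 lay within a distance of 1. For Gm11505 they were B230118H07Rik, Adgrg3 and Gsg1, all listed at 0 in CIA spleen and at 1.67 to 1.71 FPKM in healthy spleen. For Spi1 they were Gm37212, Ccdc12 and N4bp2os, for A530013C23Rik Gm42560, Gm13375 and Gm38379, and for Gm37468 Gm37728, Man2a2 and Ccdc186, all within a distance of 0.07.

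Assembled transcripts named for 121 genes in 10 lists of myeloid genes set these loci beside their pathway. Only 22 of the 121 genes had such a transcript, 56 transcripts in all, each past the minimum of 0.5 FPKM. Of the 56, 4 were 2-fold higher and 10 were 2-fold lower in CIA spleen, 7.14% and 17.9%, beside the 17.2% and 11.1% of all assembled transcripts. Their median log2 ratio was 0.09, beside 0.26 for all. Without Slpi and Spi1 the counts were 4 higher and 7 lower of 52, and the median was 0.17. No assembled transcript carried the name of a gene of specific or gelatinase granules, of the S100 and stefin list, of the NADPH oxidase or of the eosinophil, basophil and mast cell list.

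Of 2 transcripts named for primary granule genes, 1 was 2-fold lower in CIA spleen, as were 2 of 5 named for myeloid receptor genes and 1 of 5 for red pulp macrophage and complement genes. None of the assembled transcripts in these 3 lists was 2-fold higher. The 4 lower ones were 209 to 388 bases long, in the class of assembled transcripts under 500 bases, of which 22.1% were 2-fold lower. Of annotated lncRNA transcripts within 50 kb, 2 of 5 near primary granule genes were lower and 0 higher. Near myeloid receptor genes 0 of 11 were higher or lower. Near red pulp macrophage and complement genes 1 of 4 was higher and 0 lower. The 2 lower ones near primary granule genes were the member Gm11505 and its neighbour Mir142hg, both near Mpo. Among all annotated transcripts, 15.7% were higher and 6.13% lower. MSTRG.4579.1, listed as antisense to Lyz2, the lysozyme gene of macrophages and neutrophils, was at 0 in CIA spleen against 5.04 FPKM in healthy spleen. As with Gm11505 and Mpo, reads of any stretch opposite Lyz2 exons cannot be told from those of Lyz2 here. MSTRG.2348.1, inside an intron of the Fc receptor gene Fcgr3, was listed at 0 against 1.94 FPKM. MSTRG.32448.1, in the C-type lectin receptor gene Clec4d, stood at 0.237 against 2.39 FPKM. MSTRG.3714.1, in Srgn, whose proteoglycan packs granule proteins, stood at 0.669 against 2.33 FPKM. A transcript in Ctsc, which encodes the protease that activates granule serine proteases, had 7.83 FPKM in CIA spleen against 8.77, with a log2 ratio of -0.16. Receptor and macrophage genes also had transcripts within 2-fold, among them Pira2 (log2 ratio 0.73), Csf2rb2 (-0.22), Mertk (0.58 and 0.21) and Vcam1 (-0.41).

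Of 7 transcripts named for protease inhibitor genes, 4 were 2-fold lower and 0 higher, namely the 3 of Slpi and MSTRG.7460.1 in Timp2, a metalloprotease inhibitor gene, at 0.479 against 1.70 FPKM. The other Timp2 transcripts lay within 2-fold, and the gene summed to 6.099 FPKM in CIA spleen against 7.675 FPKM in healthy spleen. Of 19 named for myeloid transcription factor genes, 3 were 2-fold higher and 1 was lower, with a median of 0.69. These were 15.8% and 5.26%, beside 17.2% and 11.1% of all assembled transcripts. Most of the 19 were in Runx1. Summed per gene, the log2 ratios were 0.81 for Runx1, 0.43 for Zeb2, 0.28 for Spi1 and 0.23 for Nr4a1. The 3 higher ones were in Runx1, a factor that lymphocytes also use. MSTRG.15509.2 was listed at 0 in healthy spleen against 2.62 FPKM in CIA spleen. Its companion MSTRG.15509.1, also of 5 exons, stood at 5.28 FPKM in CIA spleen against 3.50 FPKM in healthy spleen. How reads were divided between these was not tested. MSTRG.15506.2 stood at 2.21 against 0.276 FPKM and the antisense MSTRG.15502.1 at 9.90 against 3.99 FPKM. The lower one was MSTRG.14216.2 of Nr4a1, a factor of patrolling monocytes, at 0.795 against 1.96 FPKM. The other transcripts of Nr4a1 were higher in CIA spleen, with log2 ratios of 0.53 and 0.69. Of 18 named for SIRP family genes, 1 was higher, MSTRG.15162.1 in Cd47, the ligand of SIRP alpha, at 2.45 against 0.533 FPKM. Another, MSTRG.23456.1 in Gm9733, was lower at 1.39 against 2.94 FPKM. The median of these 18 was 0.00. Summed per gene, Cd47 had a log2 ratio of 0.69 and Gm9733 of -0.51, both within 2-fold.

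**Figure D5:**
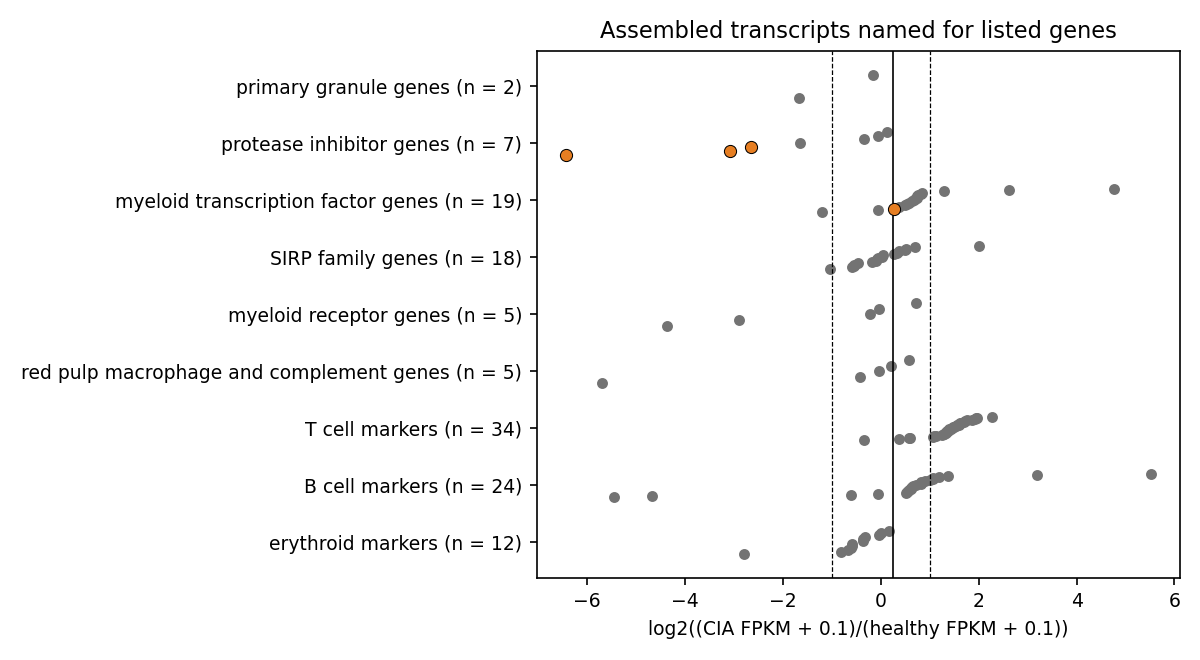
Log2 ratio of CIA over healthy FPKM, with 0.1 FPKM added, of each assembled transcript named for a listed gene, by list, with members in orange. The solid line is the median of all assembled transcripts, 0.26, and the dashed lines mark 2-fold. The 3 Slpi transcripts lie at -6.42, -3.07 and -2.65, while 30 of 34 transcripts of T cell markers lie above 1.

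Short transcripts were apart more often in either direction. Of assembled transcripts under 500 bases, 23.4% were 2-fold higher and 22.1% lower, against 9.24% and 2.36% of those of 2000 bases and over. Of the listed myeloid transcripts in the short class, 1 of 17 was higher and 7 were lower, and none of the 17 long ones was lower. The 7 include MSTRG.22997.1 of Slpi, a member chosen with its values known. Annotated lncRNA transcripts within 50 kb of the same listed genes gave 4 higher and 3 lower of 37, with a median log2 ratio of 0.03. The 3 lower ones were Gm11505, Mir142hg and Zeb2os, the last at 0.891 against 1.90 FPKM. The 4 higher ones were Gm37468, a transcript of Zfp335os near Mmp9 (log2 ratio 1.65), Tnfsf13os near Cd68 (1.27) and Gm15884 near Ptpn6 (1.08). Of the 37, 10.8% were thus higher and 8.11% lower, beside 15.7% and 6.13% of all annotated transcripts. The 37 included members, which were chosen from this contrast. Without member genes, 3 of 34 were higher and 2 lower, 8.82% and 5.88%, with a median of 0.05.

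Assembled transcripts of other cell types moved beside these values. Of 34 transcripts named for 3 of the 15 listed T cell markers, Lef1, Bcl11b and Themis, 30 were 2-fold higher and 0 lower, and their summed level was 105.5 FPKM in CIA spleen against 40.2 FPKM in healthy spleen. Of 24 named for 4 of 12 B cell markers, 7 were higher and 2 lower, with a sum of 257.9 against 165.3 FPKM. Of 12 named for 4 of 12 erythroid markers, 0 were higher and 1 lower, with a sum of 124.2 against 190.8 FPKM. The lower one, MSTRG.34614.2 antisense to the globin gene Hbb-bt, had 1.55 against 11.3 FPKM. Its companion MSTRG.34614.1 had 43.1 against 75.5 FPKM, a log2 ratio of -0.81, within 2-fold. Annotated lncRNA transcripts within 50 kb of erythroid markers did not share that direction: 0 of the 3 past the minimum were higher or lower, their median log2 ratio was 0.38, and all 4 summed to 10.08 against 9.555 FPKM. Near T cell markers 9 of 13 annotated ones were 2-fold higher and 0 lower, and near B cell markers 4 of 8 were higher and 0 lower. No assembled transcript carried the name of a platelet or NK cell marker, and the defining markers Cd3e, Cd4 and Cd79a had none. The part of cell composition in the differences at Slpi and Gm11505 was not tested.

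In the authors' deposited tables, none of the 10 transcripts was marked as significant. The authors' deposited tables gave a p of 1 to 6 of the 10, among them all 3 of Slpi, Gm11505 and the annotated Gm37468. The other 4, in the authors' deposited tables, had p-values of 0.379 for ENSMUST00000130679, 0.811 for MSTRG.21662.1, 0.992 for MSTRG.23477.1 and 0.993 for MSTRG.23475.1. They carry no variation among mice.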

How the data were processed

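The authors deposited FPKM values per transcript for 1 CIA and 1 healthy library in 2 tables of 15172 annotated and 16840 assembled transcripts, per the file headers, with 0.0001 in place of 0. Per the labels' protocols, TRIzol RNA was depleted of ribosomal RNA. StringTie is named in the submitters' processing notes. Not given in the sources used here: aligner, build, strandedness and test. Strands are those the authors listed, so reads of a transcript called antisense may be reads of the gene opposite. The ratio (fold) and log2 columns deposited by the authors follow from the FPKM values, checked within a relative tolerance of 0.0001. Each p-value and q-value comes from the authors, and none was recomputed. In 2 damaged cells, neither of a member, the numbers were assigned by the authors' deposited ratio.

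All 15172 annotated transcripts had GENCODE M21 coordinates, so GRCm38 is given. The value 0.0001 was taken as 0, 0.1 FPKM was added for log2 ratios, and transcripts reaching 0.5 FPKM in either library were counted by a 2-fold rule. Locus values are sums over transcripts of a gene name. Members, lists and rules were chosen with earlier results of these data known. Named transcripts were all members, the nearest annotated lncRNA gene, up to 4 per list of widest ratio that reached 1 FPKM in either library, and the 3 nearest patterns per locus. MSTRG.23102.1, MSTRG.23470.1, MSTRG.23471.1, Zeb2os, Zfp335os, Tnfsf13os and Gm15884 were chosen after their values were seen. So were the sums per gene and the further transcripts given beside listed ones. Copies were sought with blastn 2.17.0. The promoter is from RefSeq. Python 3.11.15, numpy 2.4.6, pandas 2.3.3 and matplotlib 3.10.9 were used.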

Additional observations from a re-analysis of the deposited data

How the results depend on the processing

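No paired analysis was possible because there was 1 library per group, and the unknown depth gives no counting interval. The counts of members 2-fold apart were 1 higher and 4 lower under every pseudocount (0.01 and 1 FPKM), minimum (none and 1 FPKM), centring and the 4-fold rule. The log2 ratio of the summed members, -1.39, stayed past 2-fold under those settings other than the 4-fold rule, which its unchanged -1.39 misses by construction, and it turned to 0.16 without Slpi. The locus ratio of A530013C23Rik turned from -0.34 to 1.27 with its intronic transcript, and that of Gm37468 went from 0.55 to 4.23 with the annotated transcript alone, against a listed 0. Centring took MSTRG.21662.1 of Spi1 to -0.02, MSTRG.23475.1 to -0.16 and MSTRG.23477.1 to -0.15, all within 2-fold. Of the 56 listed myeloid transcripts, 4 were higher and 10 lower, which became 0 and 5 of 22 with 1 sum per gene name. The member Slpi was among these 5, and the others, Clec4d, Fcgr3, Lyz2 and Srgn, each had 1 transcript under 500 bases. The share of all gene names with sums 2-fold apart was not counted, so the 5 of 22 have no background. With annotated transcripts within 50 kb, members included, the counts were 4 higher and 3 lower of 37. Among the 56, the count of lower ones was 6 with a pseudocount of 1 FPKM and 6 under the 4-fold rule. Leaving out Slpi and summing within A530013C23Rik and Gm37468 otherwise were chosen after seeing the data. The causes of these changes were not tested.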

Other observations

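The p of 1 that the authors' deposited tables give to the Slpi transcripts went with a low product of FPKM and length in kb. Among assembled transcripts in the authors' deposited table, the lowest product among the 9868 transcripts with a p below 1 was 0.855 in CIA spleen and 0.850 in healthy spleen. MSTRG.22996.1 had a product of 0.119 in CIA spleen against 21.04 in healthy spleen, MSTRG.22998.1 had 0.221 against 3.02 and MSTRG.22997.1 had 0.0732 against 0.617. The authors' deposited table gave a p of 1 to 6972 assembled transcripts, of which 107 lay above the lowest product in both libraries. Of the 6972, 6906 reached 0.5 FPKM in either library, and 3830 of these were at least 2-fold apart.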
